A study of Mus musculus with 9 samples.

Results

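The genes described here are the RNA-binding protein genes Igf2bp1, Igf2bp2 and Igf2bp3, the let-7 blockers Lin28a and Lin28b, the chromatin architectural genes Hmga1 and Hmga2, and the transcription factor gene Arid3a. They were picked by symbol, 8 of the 43432 genes in the deposited count table, and they were picked with the measured difference between the compared groups known. Their values in that comparison are therefore given as a description, without a test. RNA was sequenced from 4 cultures of Ezh2-deficient and 5 cultures of WT mouse regulatory T cells (Tregs, the Foxp3+ T cells that restrain immune responses). The Ezh2-deficient cells were Ezh2 fl/fl. Of the WT cultures, replicate 1 was Ezh2 fl/+ and replicates 2 to 5 were Ezh2 +/+. Every culture, WT included, carried a Foxp3-driven Cre with GFP and the R26 LSL-RFP reporter on the C57BL/6 background, so that in the floxed genotypes Ezh2, the methyltransferase of the Polycomb complex PRC2, is cut in Foxp3-expressing cells. CD62L-high Tregs were sorted, stimulated with beads coated with anti-CD3 and anti-CD28 in 2000 U/ml IL-2, and collected on day 4. No other treatment was given, and the age of the mice is not given in the sources used here.

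The 8 genes are best known together from fetal tissues. LIN28 proteins bind precursors of the let-7 microRNAs and block their maturation. In adult tissues mature let-7 accumulates and lowers the output of mRNAs that carry its binding sites, among them those of Hmga2, the Igf2bp genes, Arid3a and Lin28b itself. In mouse fetal liver, Lin28b sets a fetal type of blood and lymphocyte production that includes Hmga2, Igf2bp and Arid3a. IGF2BP proteins bind and stabilise mRNAs, many of them methylated on adenosine (m6A), HMGA proteins bend AT-rich DNA, and ARID3A binds AT-rich DNA in B cells and progenitors. Members of this group are also re-expressed in many tumours.

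Library totals were between 33718125 and 62201921 counts in Ezh2-deficient cells and between 32469450 and 59796319 counts in WT cells. Levels are counts scaled to library size (CPM, the library size being set by the trimmed mean of M-values). Ezh2 itself averaged 161 ± 6.49 CPM in Ezh2-deficient cells and 296 ± 50.5 CPM in WT cells (SD, n = 4 and 5; log2 fold change -0.88 ± 0.11 SE, edgeR quasi-likelihood adjusted p = 0.000363), and was lower in every Ezh2-deficient library than in every WT library. This count covers the whole gene, including exons outside the deleted part. Foxp3 averaged 1810 ± 176 CPM in Ezh2-deficient cells and 1470 ± 101 CPM in WT cells, so the labelled cell type showed its defining transcript in both groups. The mean log2 level of 23 hypoxia-response genes, used as a score, split the libraries within both groups: Ezh2-deficient replicates 1 and 4 and WT replicates 1, 2 and 4 had a high score, and Ezh2-deficient replicates 2 and 3 and WT replicates 3 and 5 a low one. Cd8a, a CD8 T cell gene, also varied within groups, from 0.361 to 79.9 CPM over the Ezh2-deficient libraries and from 1.98 to 97.6 CPM over the WT libraries. Of 13685 genes with enough counts to be tested, 3001 passed an adjusted p of 0.05 (21.9%), 1797 of them higher (13.1%) and 1204 lower (8.80%) in Ezh2-deficient cells, and the median log2 fold change of all tested genes was 0.003.

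Of the 8 genes, 5 had enough counts for the test: Igf2bp2, Igf2bp3, Hmga1, Hmga2 and Arid3a. Igf2bp2, Igf2bp3 and Hmga2 were higher in Ezh2-deficient cells, with fitted log2 fold changes of 2.93, 1.42 and 1.85. Arid3a and Hmga1 were lower in Ezh2-deficient cells, with log2 fold changes of -0.70 and -0.55. Igf2bp2, Igf2bp3 and Hmga2 had every Ezh2-deficient library above every WT library, as 12.5% of all tested genes did, and Arid3a was lower in each Ezh2-deficient library than in any WT library, as 8.69% of all tested genes did. The same 4 genes were past the threshold of the fit over all genes and Hmga1 was not; since this contrast took part in choosing them, nothing is read from those counts. The other 3 genes, Igf2bp1, Lin28a and Lin28b, were near the detection limit and were not tested. In these bulk cultures, more or fewer cells expressing a gene and more or less RNA per cell cannot be told apart.

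**Figure D1:**
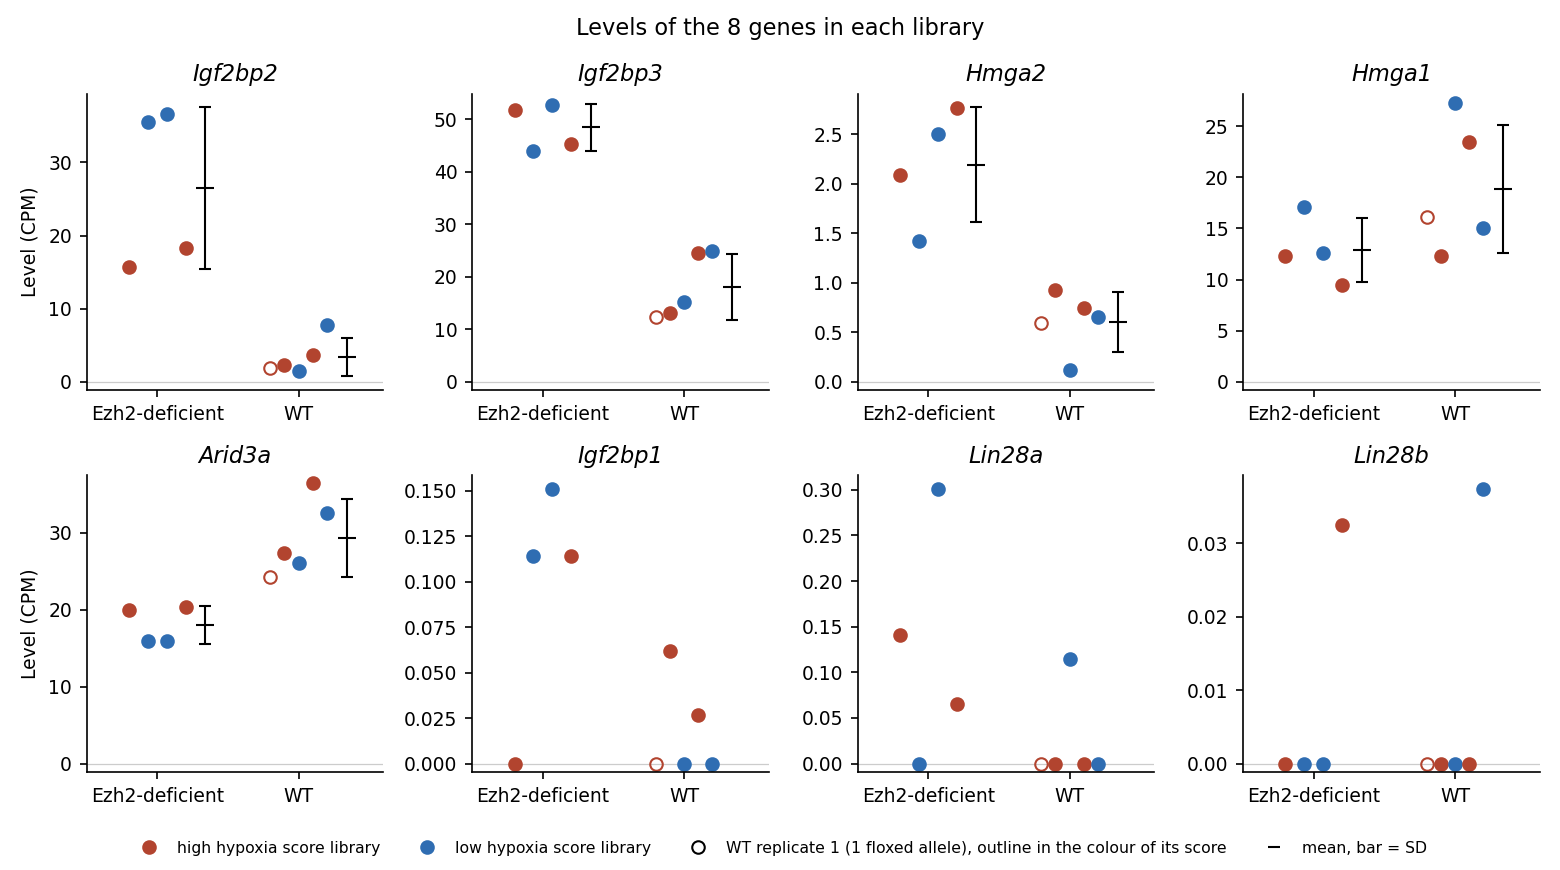
Level of each of the 8 genes in CPM (vertical axis, a scale of its own for each gene) in 4 Ezh2-deficient and 5 WT libraries (points, replicates in order from left to right; red, high hypoxia score; blue, low; open circle, WT replicate 1 with 1 floxed allele), with the mean and SD for the 5 tested genes. The 2 groups do not overlap for Igf2bp2, Igf2bp3, Hmga2 and Arid3a, and overlap for the other 4 genes.

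Igf2bp2 (ENSMUSG00000033581, chromosome 16, 22059009 to 22163299 on the minus strand of GRCm38) had the largest fitted difference of the 5. It encodes an mRNA-binding protein that, of the 3 paralogues, is the one most widely kept in adult tissues. Its level was 15.7, 35.5, 36.6 and 18.3 CPM in the Ezh2-deficient cultures (replicates 1 to 4), and 1.86, 2.35, 1.46, 3.68 and 7.82 CPM in the WT cultures (replicates 1 to 5). The lowest Ezh2-deficient library stood well above the highest WT library, WT replicate 5, which itself lay apart from the other WT libraries. The means were 26.5 ± 11.1 CPM in Ezh2-deficient cells and 3.43 ± 2.59 CPM in WT cells (SD, n = 4 and 5), a log2 fold change of 2.93 ± 0.52 (SE). Behind these levels were 556 to 1553 counts per Ezh2-deficient library and 51 to 418 counts per WT library.

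Within the Ezh2-deficient cultures the level of Igf2bp2 divided the replicates. Replicates 2 and 3, both with a low hypoxia score, had 35.5 and 36.6 CPM, and replicates 1 and 4, both with a high score, had 15.7 and 18.3 CPM. Replicates 2 and 3 were also the libraries with the least Cd8a, 0.936 and 0.361 CPM, against 28.3 and 79.9 CPM in replicates 1 and 4. WT libraries did not show the same split, since the low-score WT replicates 3 and 5 held both the lowest and the highest WT level of Igf2bp2, 1.46 and 7.82 CPM. The part of the hypoxia score and of Cd8a-expressing cells in the level of Igf2bp2 was not tested. The log2 fold change was 2.69 among high-score libraries alone and 2.90 among low-score libraries alone.

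Igf2bp3 (ENSMUSG00000029814, chromosome 6, 49085223 to 49214957 on the minus strand) encodes the paralogue most often described as oncofetal. Its level was 51.8, 44.0, 52.6 and 45.3 CPM in the Ezh2-deficient cultures (replicates 1 to 4), and 12.4, 13.1, 15.2, 24.6 and 24.9 CPM in the WT cultures (replicates 1 to 5). Ezh2-deficient libraries lay close to one another and far above WT libraries, among which replicates 4 and 5 were the highest. The means were 48.4 ± 4.45 CPM in Ezh2-deficient cells and 18.0 ± 6.22 CPM in WT cells, a log2 fold change of 1.42 ± 0.21 (SE). In contrast with Igf2bp2, the Ezh2-deficient level did not follow the hypoxia score, with 48.6 CPM on average in the high-score and 48.3 CPM in the low-score libraries. Malsu1, a mitochondrial ribosome gene, overlaps Igf2bp3 on the opposite strand, and the strand setting of the counting is not given in the sources used here. Malsu1 had a log2 fold change of -0.07 (edgeR quasi-likelihood adjusted p = 0.669).

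Igf2bp1 (ENSMUSG00000013415, chromosome 11, 95957163 to 96005940 on the minus strand), the paralogue most restricted to embryos, was barely detected. It had 0, 5, 5 and 7 counts in the Ezh2-deficient cultures (replicates 1 to 4), and 0, 2, 0, 1 and 0 counts in the WT cultures (replicates 1 to 5). Summed over libraries these were 17 counts in Ezh2-deficient and 3 counts in WT cells, a depth-scaled ratio of 6.97 (95% exact interval 2.02 to 37.1, which covers counting error only). The groups overlapped, and a count of 3 in a library corresponds to 0.0488 to 0.0926 CPM, so levels under that range were not detectable at this depth.

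Per length of exon, Igf2bp3 was the more abundant of the 2 expressed paralogues in every library. Igf2bp2 averaged 3.58 CPM per kb in Ezh2-deficient cells and 0.464 CPM per kb in WT cells, and Igf2bp3 averaged 5.93 CPM per kb in Ezh2-deficient cells and 2.21 CPM per kb in WT cells. The share of Igf2bp2 in the length-scaled sum of both was 25.0%, 47.1%, 43.4% and 30.8% in the Ezh2-deficient cultures (replicates 1 to 4), and 14.2%, 16.4%, 9.61%, 14.2% and 25.7% in the WT cultures (replicates 1 to 5). WT replicate 5 thus lay just above Ezh2-deficient replicate 1, and the other WT libraries lay below all Ezh2-deficient ones. In Ezh2-deficient cells 38.3% of tested genes had a lower mean level per length of exon than Igf2bp2 and 48.5% a lower one than Igf2bp3. In WT cells the shares were 15.2% and 31.3%.

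**Figure D2:**
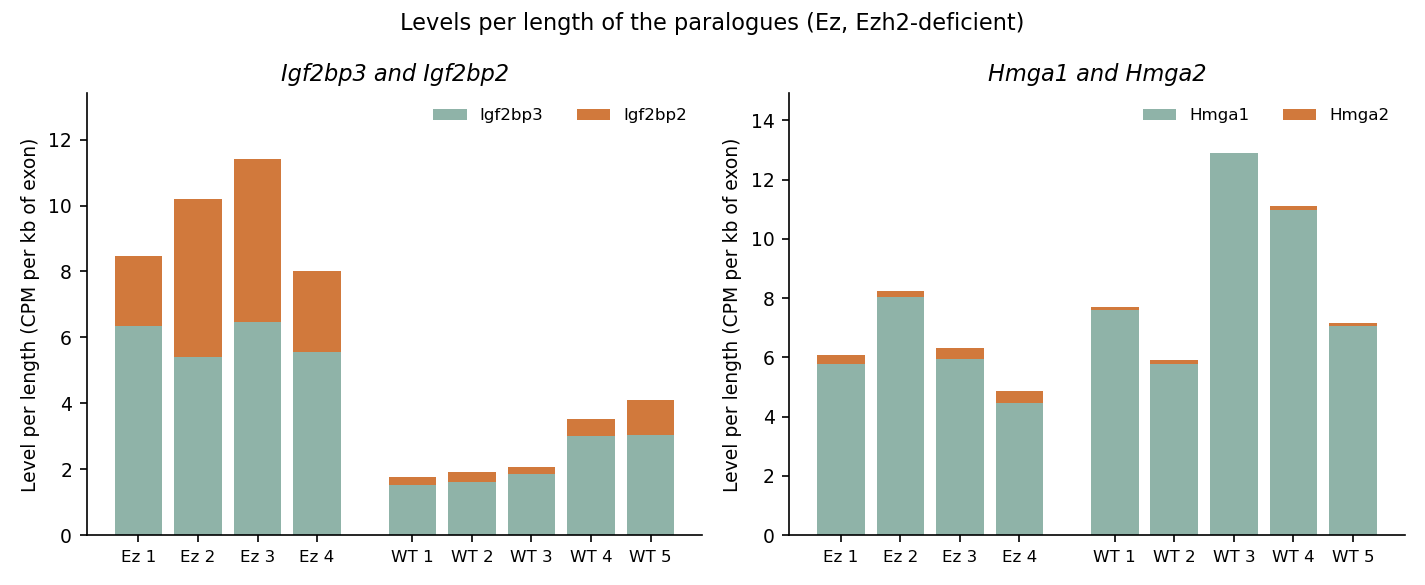
Stacked levels per length (CPM per kb of exon) of Igf2bp3 and Igf2bp2 (left) and of Hmga1 and Hmga2 (right) in each library, 4 Ezh2-deficient (Ez) and then 5 WT. The Igf2bp sum is between 8.01 and 11.4 in Ezh2-deficient libraries and between 1.77 and 4.11 in WT libraries, while Hmga2 is a thin layer on Hmga1 in every library.

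Hmga2 (ENSMUSG00000056758, chromosome 10, 120361275 to 120476469 on the minus strand) encodes an architectural protein of fetal stem cells and is a textbook let-7 target. Its level was 2.09, 1.42, 2.50 and 2.76 CPM in the Ezh2-deficient cultures (replicates 1 to 4), and 0.592, 0.926, 0.115, 0.741 and 0.655 CPM in the WT cultures (replicates 1 to 5). All Ezh2-deficient libraries were above all WT libraries, and WT replicate 3 stood lowest with 4 counts. The means were 2.19 ± 0.587 CPM in Ezh2-deficient cells and 0.606 ± 0.302 CPM in WT cells, a log2 fold change of 1.85 ± 0.43 (SE), from 62 to 170 counts per Ezh2-deficient library and 4 to 35 counts per WT library. The antisense genes 1700006J14Rik and 9230105E05Rik overlap it, with 86 and 106 counts over all libraries. The transcript remained rare in Ezh2-deficient cells, where 11.1% of tested genes had a lower mean level per length of exon, against 3.62% in WT cells.

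Hmga1 (ENSMUSG00000046711, chromosome 17, 27556497 to 27563674 on the plus strand), the paralogue of dividing cells, ran the other way. Its level was 12.3, 17.1, 12.6 and 9.49 CPM in the Ezh2-deficient cultures (replicates 1 to 4), and 16.1, 12.3, 27.3, 23.4 and 15.0 CPM in the WT cultures (replicates 1 to 5). The groups overlapped, since WT replicates 1, 2 and 5 lay within the range of the Ezh2-deficient libraries. The means were 12.9 ± 3.13 CPM in Ezh2-deficient cells and 18.8 ± 6.27 CPM in WT cells, a log2 fold change of -0.55 ± 0.24 (SE). Hmga1 counts are uncertain because of a near-identical copy, Hmga1b, with 11 counts in Ezh2-deficient and 17 counts in WT libraries, and because of AI413582, which overlaps it on the opposite strand and fell in Ezh2-deficient cells (log2 fold change -0.62 ± 0.14 SE, edgeR quasi-likelihood adjusted p = 0.00932). Without the library highest in Cd8a in each group, that call on AI413582 was lost (log2 fold change -0.47, adjusted p = 0.053).

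Per length, Hmga1 exceeded Hmga2 in every library. Hmga2 made up 5.06%, 2.54%, 5.85% and 8.37% of the length-scaled Hmga sum in the Ezh2-deficient cultures (replicates 1 to 4), and 1.14%, 2.31%, 0.132%, 0.982% and 1.35% in the WT cultures (replicates 1 to 5). All Ezh2-deficient shares were thus above all WT shares, with replicate 2 of both groups close to each other. Over the 9 libraries the log2 levels of Hmga1 and Hmga2 had a Pearson r of -0.83, and r was -0.75 on deviations from the group means. WT replicate 3 weighs heavily in both values, with the least Hmga2, 0.115 CPM from 4 counts, and the most Hmga1, 27.3 CPM. The r without that library was not computed. The points share library depth and scaling, and the values are a description.

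Lin28a and Lin28b, the let-7 blockers at the head of the fetal program, were at the limit of detection in both groups. Lin28a (ENSMUSG00000050966, chromosome 4) had 5, 0, 10 and 4 counts in the Ezh2-deficient cultures (replicates 1 to 4), and 0, 0, 4, 0 and 0 counts in the WT cultures (replicates 1 to 5). The sums were 19 counts in Ezh2-deficient and 4 counts in WT cells, a depth-scaled ratio of 5.84 (95% exact interval 1.94 to 23.6, counting error only), and the groups overlapped. Lin28b (ENSMUSG00000063804, chromosome 10) had 2 counts in all Ezh2-deficient libraries together, all in replicate 4, and 2 counts in all WT libraries together, all in replicate 5. No direction can be given for Lin28b at this depth. In length-scaled terms Lin28a averaged 0.0317 CPM per kb in Ezh2-deficient cells and 0.00574 CPM per kb in WT cells, far under Igf2bp2 and Igf2bp3.

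Arid3a (ENSMUSG00000019564, chromosome 10, 79927043 to 79955018 on the plus strand) was the gene of the group with the tightest values and the one that was lower in Ezh2-deficient cells without overlap. Its level was 19.9, 15.9, 15.9 and 20.3 CPM in the Ezh2-deficient cultures (replicates 1 to 4), and 24.2, 27.4, 26.0, 36.4 and 32.6 CPM in the WT cultures (replicates 1 to 5). The groups did not overlap, and the lowest WT library was replicate 1, the culture with 1 floxed allele. The means were 18.0 ± 2.43 CPM in Ezh2-deficient cells and 29.3 ± 5.05 CPM in WT cells, a log2 fold change of -0.70 ± 0.14 (SE). The 2 high-score Ezh2-deficient libraries, at 19.9 and 20.3 CPM, were above the 2 low-score ones, both at 15.9 CPM, the reverse of the order seen for Igf2bp2. On deviations from the group means, Arid3a followed Igf2bp3 with a Pearson r of 0.74 over 9 libraries, although their group means differed in opposite directions.

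The promoters of the 3 genes that were higher in Ezh2-deficient cells without overlap are printed because CpG-rich promoters are where PRC2 is mostly found in mammalian cells. The sequences are from RefSeq on GRCm38.p6, 250 bases before to 50 bases after the annotated start, 5′ to 3′ on the strand of the gene, with each CpG in capitals. Igf2bp2 is from chr16:22163250-22163549, Igf2bp3 from chr6:49214905-49215204 and Hmga2 from chr10:120476420-120476719, all on the minus strand.
Igf2bp2 promoter: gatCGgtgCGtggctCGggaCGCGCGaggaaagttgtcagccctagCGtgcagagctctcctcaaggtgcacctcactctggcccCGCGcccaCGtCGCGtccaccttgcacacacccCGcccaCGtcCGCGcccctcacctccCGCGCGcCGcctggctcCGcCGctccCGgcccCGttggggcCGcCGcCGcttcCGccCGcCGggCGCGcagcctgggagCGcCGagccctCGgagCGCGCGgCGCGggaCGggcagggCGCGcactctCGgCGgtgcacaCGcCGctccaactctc
Igf2bp3 promoter: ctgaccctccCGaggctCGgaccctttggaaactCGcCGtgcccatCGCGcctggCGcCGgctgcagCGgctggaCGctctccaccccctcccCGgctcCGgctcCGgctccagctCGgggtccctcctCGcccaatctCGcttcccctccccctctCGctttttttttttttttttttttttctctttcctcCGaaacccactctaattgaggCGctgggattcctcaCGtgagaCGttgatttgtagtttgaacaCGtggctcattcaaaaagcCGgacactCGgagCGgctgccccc
Hmga2 promoter: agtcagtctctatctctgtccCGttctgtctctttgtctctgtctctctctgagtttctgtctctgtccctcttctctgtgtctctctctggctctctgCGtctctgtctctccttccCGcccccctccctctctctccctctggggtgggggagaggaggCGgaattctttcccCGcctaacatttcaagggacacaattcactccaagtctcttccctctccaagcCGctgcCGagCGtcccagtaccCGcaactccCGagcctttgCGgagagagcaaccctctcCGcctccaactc

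These windows held 47 CpG in Igf2bp2, 25 in Igf2bp3 and 12 in Hmga2. Among 32851 RefSeq promoter windows of the same length the median was 7 CpG, and 98.6%, 81.6% and 60.4% of them held fewer than those of Igf2bp2, Igf2bp3 and Hmga2. Hmga1, which was lower in Ezh2-deficient cells with overlap, had 40 and 38 CpG in its 2 listed windows, more than Igf2bp3 and Hmga2. The windows of Lin28a and Lin28b, both near the detection limit, held 10 and 8 CpG. No binding or histone mark was measured in these cultures.

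The rule that picked the genes used no sequence, although several are textbook let-7 targets, and all of them share a match to the let-7 seed. The seed is bases 2 to 8 of the mature microRNA, shown in capitals in the sequences from RefSeq, 5′ to 3′. Of 11 mature let-7 names in RefSeq, 10 have the seed of let-7a, and let-7j differs from it.
let-7a-5p: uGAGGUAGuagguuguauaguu
let-7g-5p: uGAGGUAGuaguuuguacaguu
let-7i-5p: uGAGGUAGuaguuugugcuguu
miR-98-5p: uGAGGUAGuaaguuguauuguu
let-7j: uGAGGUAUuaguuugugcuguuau

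Seed matches were searched on the sense strand of the 3′ untranslated region (UTR). For each gene the GENCODE M21 transcript with the longest annotated 3′ UTR was used, and which UTR these cells use was not measured. Matches were CTACCTCA (8mer), CTACCTC without the final A (7mer-m8) and TACCTCA without the first C (7mer-A1), each place being counted once. All 8 genes had at least 1 match, where 14.9% of 21024 protein-coding 3′ UTRs and 17.3% of the 11985 belonging to tested genes did. The UTRs of the 8 genes were longer than most, at 1183 to 6337 bases against a median of 960 bases, and of the UTRs at least as long as each of them, 26.6% (for Hmga1) to 66.5% (for Igf2bp1) had a match. Hmga2 had 7 matches in 3014 bases, a number reached by 0.0238% of all UTRs and by 0.108% of UTRs at least as long. Igf2bp1 and Lin28b had 5 each and Arid3a 4, numbers that 1.33%, 1.01% and 1.05% of UTRs at least as long reached. Igf2bp2 and Lin28a had 2 each, reached by 7.60% and 11.2% of UTRs at least as long, and Igf2bp3 and Hmga1 1 each, reached by 34.1% and 26.6%. The matches of the genes that were expressed are shown with the bases before them, with the matching letters in capitals and the position counted from the first base of the UTR.
Hmga2 match at base 58: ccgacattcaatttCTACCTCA
Hmga2 match at base 1143: accgcagtaccactTACCTCAg
Hmga2 match at base 1295: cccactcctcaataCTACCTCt
Hmga2 match at base 1684: agtctccaagtttgTACCTCAa
Hmga2 match at base 1733: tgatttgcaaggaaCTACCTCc
Hmga2 match at base 2591: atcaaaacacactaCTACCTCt
Hmga2 match at base 2611: cttaagtcccagtaTACCTCAt
Igf2bp2 match at base 1313: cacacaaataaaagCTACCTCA
Igf2bp2 match at base 1330: cctcaggtgtttttTACCTCAg
Igf2bp3 match at base 548: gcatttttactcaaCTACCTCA
Arid3a match at base 404: caagcacgtctgttTACCTCAt
Arid3a match at base 1974: aggcaagtttctttCTACCTCA
Arid3a match at base 2304: tactgtccacctggTACCTCAg
Arid3a match at base 2801: gaaaaaactgttttCTACCTCt
Hmga1 match at base 801: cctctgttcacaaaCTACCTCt

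The 2 matches of Igf2bp2 lie close together, at bases 1313 and 1330 of a UTR of 1784 bases. Hmga2 also has matches close together, at bases 2591 and 2611, and so does Igf2bp1, at bases 1715 and 1734. A match is a description of letters, and mature let-7 is not read by these mRNA libraries.

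Outside these 8 genes, tested genes with more let-7 matches were more often higher in Ezh2-deficient cells, but their UTRs were also longer. Of 9914 tested genes without a match, 12.6% were higher past the threshold and 9.82% lower. The share higher was 18.0% of 1680 genes with 1 match, 20.5% of 308 with 2 and 25.6% of 78 with 3 or more, while the share lower was 9.11%, 9.42% and 6.41%. Median UTR length went along with this, at 979 bases without a match and 2166, 3380.5 and 5143 bases with 1, 2 and 3 or more. Among genes with a UTR of 2000 to 4000 bases, a range chosen after the values were seen, 19.8% of 747 genes with a match and 17.8% of 1863 without one were higher, and 7.10% and 6.60% were lower. The shares are descriptions over genes and were not tested.

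**Figure D3:**
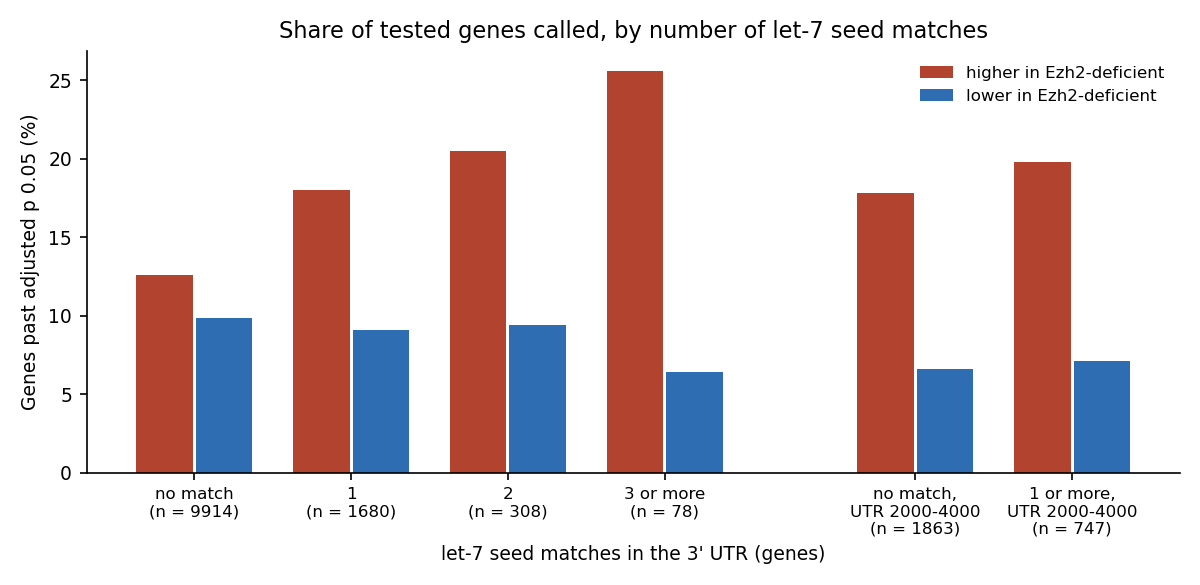
Percent of tested genes past an adjusted p of 0.05 (vertical axis; red, higher in Ezh2-deficient cells; blue, lower) by number of let-7 seed matches in the 3′ UTR, with the 8 genes left out; the 2 groups on the right hold UTRs of 2000 to 4000 bases. The share higher climbs from 12.6% to 25.6% with the number of matches and is 19.8% against 17.8% once UTR length is held in a range.

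Of 22 tested genes that make, trim or carry let-7 and other microRNAs, 2 rose and 2 fell in Ezh2-deficient cells, with a median log2 fold change of 0.03. The 18.2% that passed is close to the 21.9% of all tested genes. Ago4, a microRNA-carrying Argonaute, rose to 4.06 ± 0.538 CPM in Ezh2-deficient cells, against 0.977 ± 0.585 CPM in WT cells (log2 fold change 2.08 ± 0.37 SE, edgeR quasi-likelihood adjusted p = 0.0024), and Ago3 rose by 0.41 ± 0.08 on the log2 scale (adjusted p = 0.00425). Adar, an adenosine deaminase acting on double-stranded RNA, fell by 0.26 ± 0.07 on the log2 scale (adjusted p = 0.0161), a call lost without the library highest in Cd8a of each group (adjusted p = 0.0617) and among high-score or low-score libraries alone (adjusted p = 0.0775 and 0.216). Tut1, a terminal uridylyltransferase, fell by 0.46 ± 0.14 (adjusted p = 0.0374), a call lost without any of Ezh2-deficient replicates 3 or 4 or WT replicates 3 or 4 (adjusted p 0.0647 to 0.0898). Dicer1, Ago2 and the LIN28-recruited uridylyltransferase Tut4 had log2 fold changes of 0.03, 0.07 and 0.21 (adjusted p = 0.798, 0.444 and 0.0751). Wdr82 and Huwe1, which host let-7g and the pair let-7f-2 and miR-98 in mouse, had log2 fold changes of -0.28 and -0.06 and did not pass (adjusted p = 0.0518 and 0.577).

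Of 25 other tested let-7 targets, 7 rose and 1 fell (28.0% higher, beside 13.1% of all tested genes), with a median of 0.04. The list was drawn up with earlier results of these data known. Without Ezh2-deficient replicate 1, 4 of the 7 calls were lost, those on Insr, Bach1, Thbs1 and Map4k3 (adjusted p 0.0546 to 0.152), and 3 were kept, those on Trim71, Mycn and Rictor. The call on Bach1 was lost in 16 of 21 alternatives. Trim71, the stem cell ubiquitin ligase that follows Lin28 in the same pathway, rose to 4.78 ± 1.26 CPM in Ezh2-deficient cells, against 0.948 ± 0.248 CPM in WT cells (log2 fold change 2.32 ± 0.27 SE, adjusted p = 0.000167). Mycn, a MYC family gene of embryonic tissues, rose to 12.3 ± 1.79 CPM in Ezh2-deficient cells, against 2.91 ± 1.20 CPM in WT cells (2.07 ± 0.28, adjusted p = 0.000502). Rictor, a subunit of mTORC2, rose by 0.53 ± 0.10 (adjusted p = 0.00423), and Cdc25a, a cell cycle phosphatase, fell by 0.50 ± 0.08 on the log2 scale (adjusted p = 0.00175). Thbs1, an extracellular matrix gene, had a log2 fold change of 1.82 ± 0.57 (adjusted p = 0.0386) that lost its call without any of Ezh2-deficient replicates 1 or 4 or WT replicates 1, 2, 3 or 5 (adjusted p 0.0559 to 0.118). The classical targets Nras, Hras and Myc had log2 fold changes of -0.16, -0.12 and -0.38 and did not pass (adjusted p = 0.372, 0.36 and 0.0599). All adjusted p-values are from the same edgeR quasi-likelihood fit over 13685 genes.

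Of 16 tested transcripts known to be bound by IGF2BP proteins, 2 rose and 2 fell, with a median of 0.03, and the 25.0% that passed is close to the 21.9% of all tested genes. Among them, Cd44, an adhesion receptor, rose by 0.51 ± 0.09 on the log2 scale (edgeR quasi-likelihood adjusted p = 0.00287), while Actb, cytoskeletal actin, fell by 0.34 ± 0.08 (adjusted p = 0.0125) and Hdgf, a growth factor gene, by 0.31 ± 0.09 (adjusted p = 0.0345). The call on Hdgf was lost without Ezh2-deficient replicate 1 or 4 (adjusted p = 0.0796 and 0.0682). Of the 19 tested genes of the m6A machinery 1 rose, the writer subunit Virma (0.29 ± 0.08, adjusted p = 0.0254), with a median of -0.08 for the list. That call was lost without any of Ezh2-deficient replicates 1, 3 or 4 or WT replicate 3 (adjusted p 0.0726 to 0.0999).

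Of 10 tested IGF axis genes 3 passed, all higher (30.0%, beside 13.1% of all tested genes), with a median of 0.40. Earlier results of these data were known when this list was drawn up, and Insr is also on the list of let-7 targets. Grb10, an imprinted adaptor that dampens insulin receptor signalling, rose to 2.43 ± 0.281 CPM in Ezh2-deficient cells, against 0.596 ± 0.305 CPM in WT cells (log2 fold change 2.01 ± 0.37 SE, edgeR quasi-likelihood adjusted p = 0.00288). Insr, the insulin receptor, rose by 0.54 ± 0.13 (adjusted p = 0.0141) and Igfbp7, an IGF-binding protein, by 0.73 ± 0.22 (adjusted p = 0.0328). The Insr call was lost when Ezh2-deficient replicate 1 or 4 was left out (adjusted p = 0.0546 and 0.0524) and Igfbp7 without Ezh2-deficient replicates 2 or 3 or WT replicates 2, 3 or 4 (adjusted p 0.0623 to 0.0928). Igf2, from which the IGF2BP family takes its name, was at 0.442 ± 0.269 CPM in Ezh2-deficient cells and 0.262 ± 0.0932 CPM in WT cells and did not pass (adjusted p = 0.255), nor did the receptor Igf1r (-0.01, adjusted p = 0.978).

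A list of 23 other fetal and oncofetal genes was also drawn up with earlier results of these data known. Of these genes 11 were expressed enough to test, and 4 of the 11 rose (36.4%, beside 13.1% of all tested genes) and 1 fell, with a median of 0.12. Besides Trim71 and Mycn these were Plag1, a zinc-finger factor of fetal growth, at 14.2 ± 2.55 CPM in Ezh2-deficient cells and 4.09 ± 0.854 CPM in WT cells (log2 fold change 1.80 ± 0.18 SE, edgeR quasi-likelihood adjusted p = 8.32e-05), and Bex1, at 1.91 ± 0.45 CPM in Ezh2-deficient cells and 0.200 ± 0.163 CPM in WT cells (3.27 ± 0.60, adjusted p = 0.00295). The one that fell was Plagl2, a relative of Plag1 (-0.43 ± 0.12, adjusted p = 0.0238), a call lost without Ezh2-deficient replicate 3 or WT replicate 4 (adjusted p = 0.0597 and 0.0514). Imprinted Dlk1 and the fetal serum protein gene Afp had log2 fold changes of -0.01 and 0.58 and did not pass, and Sall4, Sox11, Sox17, Ptn and the embryonic globin Hbb-bh1 had a count of 0 in every library. Relatives of the 8 genes by protein domain stayed mostly under the threshold: 1 of 11 tested HMG box and HMGN genes passed (Hmgxb3, -0.34 ± 0.08, adjusted p = 0.0135), with a median of -0.12. The Hmgxb3 call was lost without the library highest in Cd8a of each group (adjusted p = 0.062) and among high-score or low-score libraries alone (adjusted p = 0.112 and 0.151). Of 13 tested ARID genes 0 passed in the edgeR test, with a median of 0.12, and Arid1a and Arid5a had log2 fold changes of -0.10 and 0.16. At an unadjusted p under 0.05, 3 ARID genes were higher and 0 lower, and by adjusted p DESeq2 called 0 and limma-voom 1. Over these related lists together, 23 of 121 tested genes passed, 16 higher and 7 lower. Genes on more than 1 list, such as Trim71, Mycn and Insr, were counted once. The share that passed was under the 21.9% of all tested genes, of which 13.1% were higher and 8.80% lower.

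**Figure D4:**
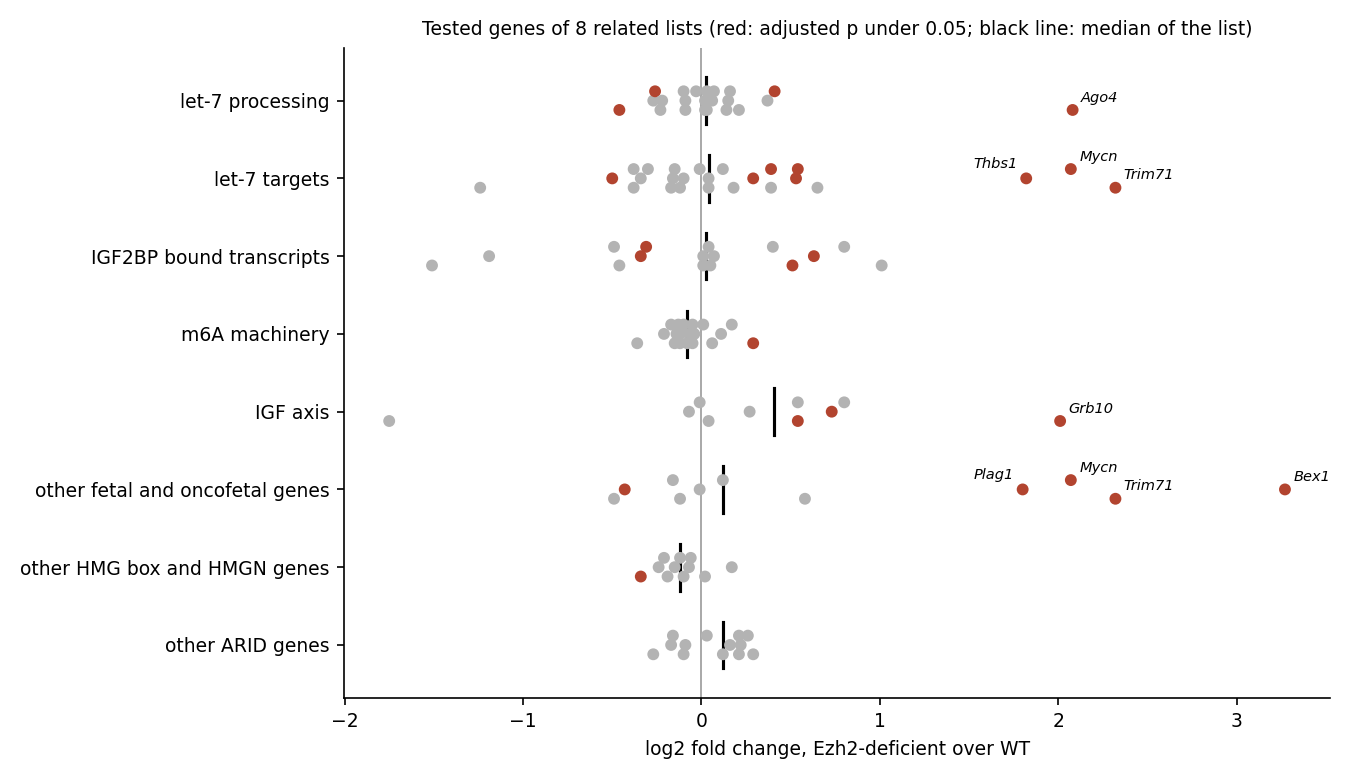
Log2 fold change, Ezh2-deficient over WT (horizontal axis), of each tested gene (points; red, adjusted p under 0.05; gray, not) in 8 lists of related genes, with the median of each list as a black line. Most genes lie near 0, and the points above 1.5 are Ago4, Thbs1, Mycn, Trim71, Grb10, Plag1 and Bex1.

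Of 125 tested genes that start within 500 kb of any of the 8 genes, 12 rose and 14 fell. These are 9.60% and 11.2%, beside 13.1% higher and 8.80% lower among all tested genes. Around Igf2bp3, whose start lies 1.62 Mb from that of Ezh2 on chromosome 6, 6 of 13 passed, all higher (46.2%, beside 13.1% of all tested genes), at 373 to 496 kb on the side of Ezh2. They included Tmem176a and Tmem176b, ion channel genes, with log2 fold changes of 2.52 ± 0.25 and 2.63 ± 0.25 (SE, edgeR quasi-likelihood adjusted p = 8.32e-05 and 9.42e-05), and the lymphocyte GTPase gene Gimap3 (0.70 ± 0.10, adjusted p = 0.000826). The genes nearer to Igf2bp3 did not pass. Around Arid3a, 8 of 45 passed, all lower (17.8%, beside 8.80% of all tested genes), among them Cnn2, an actin-binding protein gene, at 216 ± 9.16 CPM in Ezh2-deficient cells and 384 ± 45.3 CPM in WT cells (-0.83 ± 0.09, adjusted p = 0.000137). Of these 8 calls around Arid3a, 6 were lost without Ezh2-deficient replicate 3 (adjusted p 0.0509 to 0.0895), 4 without each of Ezh2-deficient replicates 1 and 4 and WT replicate 4, and 7, all but that on Cnn2, without the library highest in Cd8a of each group (adjusted p 0.0577 to 0.207) or among low-score libraries alone. The number past the threshold around all 8 genes was 26 with all libraries, 16 without Ezh2-deficient replicate 3 and 14 without the library highest in Cd8a of each group.

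Counts near the other genes were small, beside 13.1% of all tested genes higher and 8.80% lower. Around Igf2bp2, 2 of 10 tested genes passed, both higher. One was 2510009E07Rik, 469 kb downstream, at 24.8 ± 2.03 CPM in Ezh2-deficient cells and 4.64 ± 0.584 CPM in WT cells (log2 fold change 2.42 ± 0.12 SE, edgeR quasi-likelihood adjusted p = 3.66e-07). The other was the noncoding 1300002E11Rik, whose call was lost in 13 of 21 alternatives. Near Hmga2, 1 of 5 rose and 2 fell, and Irak3, a brake on Toll-like receptor signalling 274 kb downstream, rose to 6.84 ± 1.45 CPM in Ezh2-deficient cells, against 3.20 ± 0.429 CPM in WT cells (1.09 ± 0.19, adjusted p = 0.00192). The 2 that fell, Msrb3 and Helb, lost their calls without any of Ezh2-deficient replicates 1, 2 or 3 or WT replicates 2 or 4 (adjusted p 0.0594 to 0.113). Near Igf2bp1, 2 of 12 rose, with Zfp652 at 161 ± 10.5 CPM in Ezh2-deficient cells and 95.7 ± 18.3 CPM in WT cells (0.75 ± 0.12, adjusted p = 0.00161). Near Lin28b, 1 of 2 fell, the peptidase gene Prep (-0.62 ± 0.09, adjusted p = 0.000826), and near Lin28a 1 of 25 rose and 2 fell. The calls near Lin28a, on Pafah2, Sfn and Zdhhc18, were lost in 6, 7 and 8 of 21 alternatives.

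**Figure D5:**
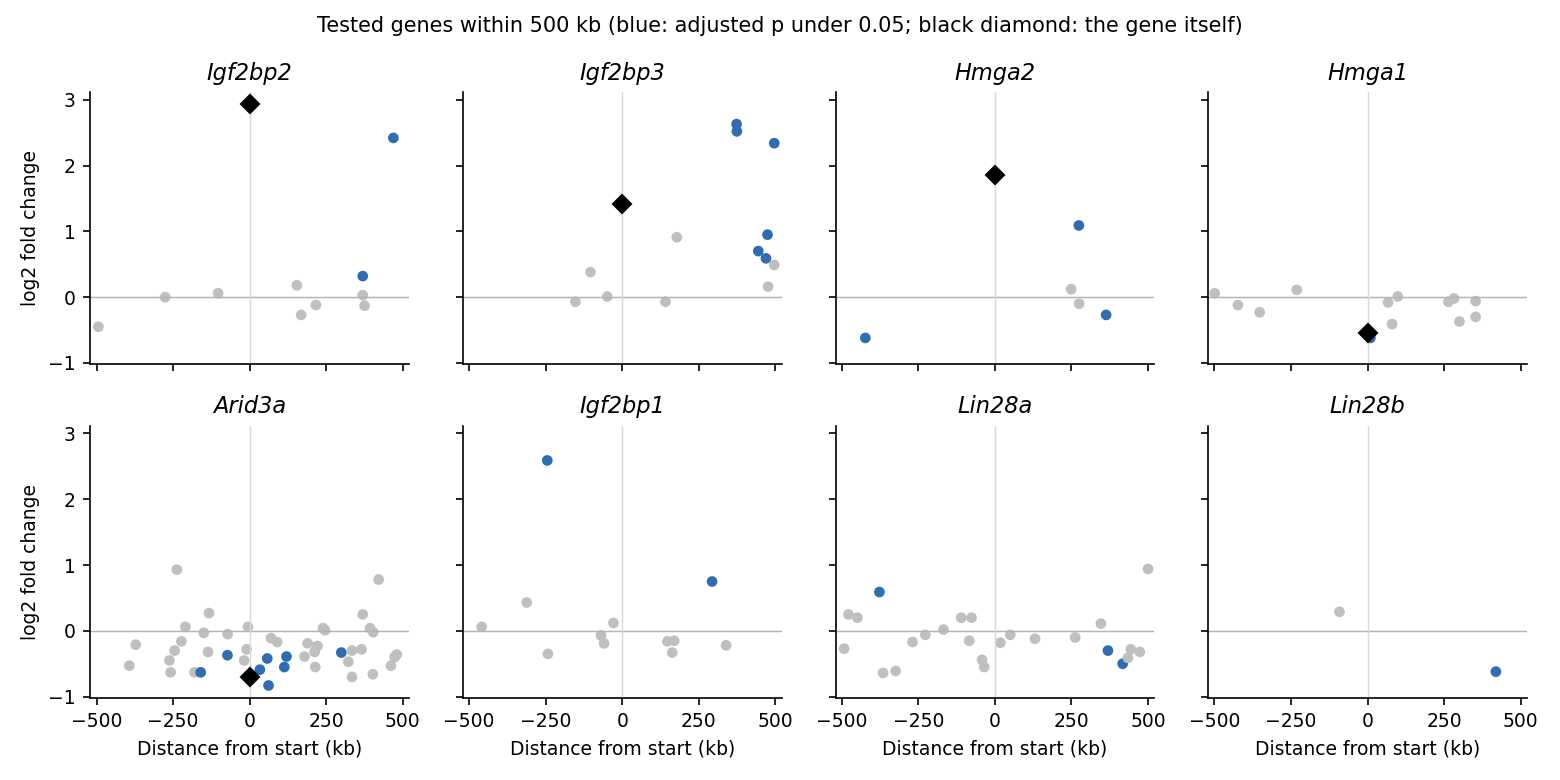
Log2 fold change, Ezh2-deficient over WT (vertical axis), of tested genes against the distance of their start from that of each of the 8 genes, in kb along its direction of transcription (blue, adjusted p under 0.05; gray, not; black diamond, the gene itself where tested). The genes past the threshold near Igf2bp3 sit 373 to 496 kb away, and those past it near Arid3a are all lower.

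Several of the 8 genes are also expressed in blood progenitors, and markers of other cell types were set beside them. Kit, a receptor of progenitors and mast cells, rose to 113 ± 43.8 CPM in Ezh2-deficient cells, against 25.1 ± 14.4 CPM in WT cells (log2 fold change 2.17 ± 0.43 SE, edgeR quasi-likelihood adjusted p = 0.00978). It was the 1 gene past the threshold of 3 tested among 8 stem and progenitor markers (33.3% higher, beside 13.1% of all tested genes). The summed level of these markers was 71.0 to 171 CPM in Ezh2-deficient and 22.3 to 60.0 CPM in WT libraries. Most of that sum was Kit on average, so it is no separate sign of a rise across the list. The other tested markers did not pass and differed in direction. Procr was lower (-1.08 ± 0.41, adjusted p = 0.0843) and Gata2 higher (2.01 ± 0.69, adjusted p = 0.0533). DESeq2 and limma-voom each called 2 markers of the list higher and 1 lower. Mecom was at 0 in every library, Flt3 was at 0.0707 CPM in Ezh2-deficient cells and 0.331 CPM in WT cells, and Cd34 had 24 counts in Ezh2-deficient cells and 0 in WT cells. Of 10 myeloid markers the 2 tested ones rose, Itgam and Adgre1 (0.80 ± 0.18 and 1.75 ± 0.36, adjusted p = 0.00817 and 0.00515). That is all of the tested ones, beside 13.1% of all tested genes, but 2 genes are few for a share. The summed level of the list was 20.1 to 27.7 CPM in Ezh2-deficient and 9.04 to 17.5 CPM in WT libraries, while S100a9 was at 0 and Lyz2, Csf1r and Mpo were at or near 0 in both groups. Cd14, a monocyte receptor of the same list, went the other way at the detection limit, with 1 count in Ezh2-deficient cells and 42 counts in WT cells. The part of such cells in the levels of the 8 genes was not tested.

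Of 7 erythroid markers 1 of the 2 tested rose, Hba-a1 (1.70 ± 0.47 SE, edgeR quasi-likelihood adjusted p = 0.0245), with a summed level of 5.41 to 19.4 CPM in Ezh2-deficient and 2.17 to 7.74 CPM in WT libraries and Slc4a1 at 0 in every library. The Hba-a1 call was lost when Ezh2-deficient replicate 2 or WT replicate 2 or 3 was left out (adjusted p 0.0505 to 0.0736). Of 7 tested B cell markers 2 fell, Cd79a and Blk (-1.38 ± 0.30 and -1.94 ± 0.64, adjusted p = 0.00716 and 0.0463), in libraries where Arid3a, a gene of the B lineage, was lower too, and the call on Blk was lost without any of 3 Ezh2-deficient or 4 WT libraries (adjusted p 0.0566 to 0.0969). DESeq2 called 3 of these markers lower and limma-voom 5, and the call on Cd79a was lost among high-score or low-score libraries alone (adjusted p = 0.0866 and 0.0573). The summed level of the list was 15.2 to 26.6 CPM in Ezh2-deficient and 22.4 to 25.7 CPM in WT libraries. Of 6 tested CD8 T and NK cell markers and of 23 hypoxia genes, 0 passed in the edgeR test in either direction, and 0 of each had an unadjusted p under 0.05. DESeq2 called 0 of each and limma-voom 1 of each. Summed CD8 T and NK cell markers spanned 18.2 to 164 CPM in Ezh2-deficient and 26.4 to 164 CPM in WT libraries. Of 12 proliferation genes 1 fell, Aurkb (-0.35 ± 0.09, adjusted p = 0.0195). Of 9 Treg markers 1 passed, Foxp3 (0.30 ± 0.09, adjusted p = 0.0313), a call lost without any of Ezh2-deficient replicates 1, 2 or 3 or WT replicates 2, 3 or 5 (adjusted p 0.0503 to 0.126). Of 6 tested stromal and epithelial markers 2 rose, Pdgfrb (2.75 ± 0.68, adjusted p = 0.0137) and Krt18 (1.13 ± 0.32, adjusted p = 0.0257), both at about 1 CPM in Ezh2-deficient cells, and the call on Krt18 was lost when either of Ezh2-deficient replicates 1 and 4 or of WT replicates 1 and 3 was left out (adjusted p 0.0533 to 0.0728). Krt8 was at 0 in every library. The summed level of this list was 215 to 262 CPM in Ezh2-deficient and 189 to 240 CPM in WT libraries, most of it Pecam1, an adhesion gene that some leukocytes also express, at 217 CPM in Ezh2-deficient cells and 189 CPM in WT cells. The part of any of these in the levels of the 8 genes was not tested either.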

How the data were processed

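Per the labels' protocols, libraries were made with the Illumina TruSeq kit for stranded mRNA. The authors deposited whole-number counts per Ensembl gene, not normalized; STAR and GRCm38 are given in the submitters' processing notes. How reads were counted, including use of strand, and against which annotation is not given in the sources used here; counts of overlapping genes are therefore uncertain. The labels call samples of a group biological replicates; whether cultures came from separate mice is not stated per sample, and p-values measure the spread between these cultures. No pair of libraries agreed within sampling noise (lowest chi-square per degree of freedom 21.93). WT replicate 1 (Ezh2 fl/+) stayed in WT, as labelled.

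The 8 genes and all gene lists were chosen with earlier results of these data known. Of 43432 genes, 13685 passed edgeR's filterByExpr. Counts were fitted with edgeR 4.0.16 in R 4.3.3 (trimmed mean of M-values, robust quasi-likelihood F-test, Benjamini-Hochberg over all tested genes, threshold 0.05), with a biological coefficient of variation of 0.206; the fit was tested on simulated data first. CPM is the deposited count over library size, scaled by the same factors. DESeq2 1.42.0 and limma 3.58.1 (voom with quality weights), 3 other scalings, other filters, a replicate block and leaving out each library were tried as alternatives, and splits and a covariate by the hypoxia score and leaving out the libraries highest in Cd8a were added after the data were seen.

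Positions came from GENCODE M21, in which 42548 identifiers were found. UTRs are from its transcripts, for each gene the longest annotated one. Promoters and microRNAs are from RefSeq on GRCm38.p6, where 6 of the 8 genes had a promoter window. Genes named outside the 8 were, by rule, those past the threshold with the smallest adjusted p in each list (up to 4; where none passed, the 2 of highest level) and near each of the 8 genes (up to 3), and the 3 most alike in profile; other genes named were picked as textbook members of a list or after their values were seen. The values of some genes of these lists are not reported here; counts and medians cover each whole list.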

Additional observations from a re-analysis of the deposited data

Results flagged for a closer look

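Values of the 8 genes and of the genes named with them, with a floor of 10 counts, were checked for a library that stood apart. The comparison was with the other libraries of its group (Dixon's test at the 95% level), and chance flags about 1 in 20 groups. Of 122 groups of values 6 were flagged, and none of the 5 tested genes of the 8 was among them. Nothing is read from this check for Igf2bp1, Lin28a and Lin28b, which were near the detection limit. Ago4 stood highest in Ezh2-deficient replicate 4, at 4.86 CPM, and Arid5a stood lowest there, at 229 CPM. Msrb3, a methionine sulfoxide reductase gene near Hmga2, stood highest in the same library, at 12.4 CPM. Among WT libraries, Cdc25a stood lowest in replicate 4, at 72.3 CPM, Cd44 stood lowest in replicate 3, at 119 CPM, and Foxp3 stood lowest in replicate 5, at 1290 CPM.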

How the results depend on the processing

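The log2 fold changes of the 5 tested genes kept their sign and moved by less than 1 SD under all 21 alternatives: 2.69 to 3.49 for Igf2bp2, 1.24 to 1.70 for Igf2bp3, 1.57 to 2.24 for Hmga2, -0.74 to -0.31 for Hmga1 and -0.91 to -0.55 for Arid3a. The number of genes past the threshold moved more. Over all genes it was 3001, against 1764 with high-score libraries alone, 570 with low-score libraries alone and 1972 to 3168 when 1 library was left out, the lowest without Ezh2-deficient replicate 3. For the related lists it was 23, against 38 with the hypoxia score as a covariate, 35 with limma-voom and 8 with low-score libraries alone. Near the 8 genes it was 26, against 6 with low-score libraries alone, 14 without the library highest in Cd8a of each group and 16 to 36 when 1 library was left out. The low-score and high-score fits held 4 and 5 libraries. Ago4, Trim71, Mycn, Cdc25a, Plag1, Cnn2, Tmem176a, Tmem176b, Gimap3 and 2510009E07Rik kept their calls under all 21. Ago3, Rictor, Cd44, Grb10, Bex1, Prep, Irak3, Zfp652, Itgam, Adgre1 and Aurkb lost theirs with low-score libraries alone (adjusted p 0.0577 to 0.222). Insr did so too (edgeR quasi-likelihood adjusted p = 0.13), and Igfbp7 lost its call with high-score libraries alone (log2 fold change 0.22, adjusted p = 0.339). Actb, Cd79a, Hba-a1 and Pdgfrb lost theirs in either hypoxia class (0.0573 to 0.232), and Tut1, Hdgf, Virma, Plagl2, Thbs1, Blk and Krt18 without the library highest in Cd8a of each group (0.0621 to 0.169). The cause of these lost calls and changed numbers was not tested. Same-numbered libraries of the groups had correlations of their deviations of 0.153, -0.0834, 0.114 and 0.187 for replicates 1 to 4, so the numbers were not taken as pairs. With the replicate number as a block the log2 fold changes were 3.43 for Igf2bp2, 1.61 for Igf2bp3, 1.97 for Hmga2, -0.61 for Hmga1 and -0.67 for Arid3a, and the block ended the calls on Thbs1 (adjusted p = 0.0803), Krt18 (0.075), Foxp3 (0.111), Map4k3 (0.0624) and Bach1 (0.0711). The block gave 2767 genes past the threshold over all genes, 27 in the related lists and 30 near the 8 genes. Depth limits Igf2bp1, Lin28a and Lin28b, whose counts of 0 to 10 per library fix no level.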

Other observations

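Igf1, the ligand of the IGF axis, was too rare for the test and was chosen here after its values were seen. It had 161 counts over the Ezh2-deficient libraries and 9 over the WT libraries, and its level averaged 0.802 ± 0.59 CPM in Ezh2-deficient cells and 0.0331 ± 0.0416 CPM in WT cells (SD, n = 4 and 5), without overlap. Meg3, an imprinted noncoding RNA, had 19 counts in Ezh2-deficient and 2 in WT cells, without overlap, and the embryonic globin Hbb-y had 33 counts in Ezh2-deficient and 5 in WT cells, with overlap. Imprinted Peg3 went the other way, with 4 counts in Ezh2-deficient and 29 in WT cells, also with overlap.

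The tested genes whose log2 levels most resembled each of the 8 over the 9 libraries are given by Pearson r as a description, the points sharing library depth and scaling. Lrrc75b (0.992), Zmat3 (0.989) and Pcyt1a (0.988) were closest to Igf2bp2, and Lrrc75b was also close on deviations from the group means (0.962), after Nccrp1 (0.963). Arfgef3 (0.985), Tifab (0.982) and Ano10 (0.980) were closest to Igf2bp3, and Mllt11 (0.977) on deviations. Nlrc5 (0.976), Tgtp2 (0.974) and Fndc3a (0.971) were closest to Hmga2, and Arid5b (0.965), an ARID gene, on deviations. Arpc1b (0.980), Polr2f (0.979) and Ndufs7 (0.976) were closest to Hmga1, with Anxa11 (0.989) on deviations, and Ghitm (0.976), Pqlc1 (0.972) and Fam234a (0.971) to Arid3a, with Spock2 (0.969) on deviations. Igf2bp2 and Igf2bp3 had an r of 0.94 with each other over all libraries and of 0.68 on deviations from the group means.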
